A study of Homo sapiens with 52 samples.

Results

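The MEF2 transcription factors and the class IIa histone deacetylases (HDACs) that bind them were examined as 7 genes: MEF2A, MEF2C, MEF2D, HDAC4, HDAC5, HDAC7 and HDAC9. They were chosen by gene name, and all 7 were found among the 27043 gene rows of every one of 52 RNA-seq libraries. The libraries came from fusion-positive rhabdomyosarcoma (FP-RMS) cells, a childhood muscle-lineage cancer driven by the PAX3-FOXO1 fusion protein, an established line labelled RH4, treated for the most part with small molecules that act on chromatin. A screen of 20 compounds held 1 library at a high and 1 at a 10-fold lower dose of each, all at 6 h, and 4 libraries of the solvent DMSO, 2 at 0.1% and 2 at 0.2%. N1302, a HDAC inhibitor, was measured at 1 µM after 6 h with 1 DMSO library (0.1%), and entinostat, labelled HDAC1/2/3, at 1 µM after 1, 6 and 24 h, each with 1 DMSO library (0.1%) of the same time. Every level below is in TPM, a share of all transcripts that is scaled to gene length, so that levels of different genes can be compared.

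The key contrast was MC1568, labelled as an inhibitor of HDAC4/5, at 10 and 1 µM. It was grouped with 6 further compounds that act on acetylation: LAQ824 (HDAC, at 5 and 0.5 µM), Merck60 (HDAC1/2), OJI-1 (HDAC8), WT161 (HDAC6), Bromosporin (bromodomains) and SGC-CBP30 (the CREBBP/EP300 bromodomain), the last 5 at 10 and 1 µM. Another 11 act on methylation: Cpd50 (Pan Jumonji) and GSKJ4 (JMJD3/UTX), both at 5 and 0.5 µM, and, at 10 and 1 µM, GSKLSD1, LSD519 and LSD690 (LSD1), EZ-005 (EZH2), UNC1999 (EZH1), PFI-2 (SETD7), SGC0946 (DOT1L), UNC0638 (KMT1C) and UNC1215 (L3MBTL3). PFI-3 (SMARCA4) and the MEK inhibitor Trametinib (MEK1/2), at the same doses, belong to neither set. Screen libraries carry RH41 in their titles although RH4 is given as their cell line, so screen libraries were compared only with screen libraries.

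MEF2 proteins bind AT-rich sites in the control regions of muscle genes and switch them on together with the MyoD family. Class IIa HDACs have little deacetylase activity of their own: they dock on MEF2 and bring in corepressors that contain HDAC3, and they leave the nucleus when kinases phosphorylate them and 14-3-3 proteins hold them in the cytoplasm. The HDAC9 gene is itself known as a MEF2 target, so the family includes a feedback loop. An inhibitor of these enzymes acts on the proteins, whereas the measurements below are of mRNA.

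The start regions of the family are shown first, because the MEF2 proteins can bind at the genes that encode the family. A 10-letter form of the MEF2 site, CTATTTTTAG on one strand and CTAAAAATAG on the other, was searched on both strands of RefSeq start regions of build GRCh38.p14, each 250 bases before to 50 bases after a start. It was found in 2 of the 22 regions of the family, 1 of the 5 of HDAC9 and 1 of the 3 of MEF2A, against 0.142% of all 35116 regions. The wider MEF2 consensus, of which the 10-letter form is one case, was found in 3 of the 22, the third belonging to MEF2C, against 2.99% of all. The regions of MEF2D (1), HDAC4 (5) and HDAC7 (1) held neither, which says only that these letters are not in these windows. HDAC9 at chr7:18086575-18086826 (plus strand) is printed with the site in capitals, its first letter 8 bases before the start, and MEF2A at chr15:99565951-99565980 (plus strand) with the site and its neighbours, its first letter 23 bases before the start. HDAC7 at chr12:47819904-47820153 (minus strand) is printed beside them because its mRNA fell furthest.
HDAC9: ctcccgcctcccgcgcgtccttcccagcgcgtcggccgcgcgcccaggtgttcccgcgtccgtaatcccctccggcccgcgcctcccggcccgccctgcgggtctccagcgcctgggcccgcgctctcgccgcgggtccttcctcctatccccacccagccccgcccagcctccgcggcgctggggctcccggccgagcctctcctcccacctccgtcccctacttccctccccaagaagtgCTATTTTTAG
MEF2A: ggcttgtctcCTAAAAATAGccccggtgtg
HDAC7: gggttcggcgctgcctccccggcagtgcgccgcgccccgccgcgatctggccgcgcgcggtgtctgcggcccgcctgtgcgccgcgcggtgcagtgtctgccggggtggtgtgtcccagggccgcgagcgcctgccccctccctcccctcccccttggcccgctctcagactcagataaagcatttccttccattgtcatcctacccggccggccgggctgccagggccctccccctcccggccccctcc

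On build hg19 the genes are annotated as protein-coding and span chr15:100106133-100256693 (MEF2A), chr5:88014058-88199922 (MEF2C), chr1:156433513-156470634 (MEF2D), chr2:239969864-240322643 (HDAC4), chr17:42154121-42201014 (HDAC5), chr12:48176494-48213763 (HDAC7) and chr7:18126565-19042037 (HDAC9). Other rows of the tables overlap 5 of them. HDAC7 overlaps SLC48A1, a heme transporter gene that reached 24.8 TPM, while the rows overlapping MEF2C, HDAC4, HDAC5 and HDAC9 did not exceed 3.08 TPM. The strand setting of the libraries is not given in the sources used here, so reads of HDAC7 and SLC48A1 that fall in the shared stretch cannot be told apart.

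Each library held 5646972 to 40825328 reads, as recovered from the step sizes of its levels, and depth followed the flow cell: the 28 libraries of 14 compounds on one flow cell held 5646972 to 20741080 reads and no DMSO library. In 3 libraries, Bromosporin, Merck60 and PFI-2 at 10 µM, 38.8% to 42.15% of the read numbers were odd, against at least 51.8% in the others. Calls of the reported fit under Bromosporin and the contrast with Merck60 are therefore also given without that library. The axis test left these libraries out only together with all other high doses. GSKLSD1 and UNC1215 were on a flow cell of their own, also without DMSO. The 4 DMSO libraries of the screen were split over 2 other flow cells, 1 of which also held MC1568 and LAQ824. The muscle markers MYOD1 (640 to 648 TPM), MYOG (572 to 587 TPM) and DES (413 to 443 TPM) were high in all 4, as the FP-RMS label implies. Of the markers of other cell types, PTPRC was listed at 0 and EPCAM and PECAM1 were at most 0.147 TPM in DMSO, while the collagen gene COL1A1 was at 89.7 to 102 TPM. The study's methods speak of replicate experiments and replicate DMSO controls without saying whether they were separate cultures, and a replicate here is another dose or another library, so a p-value measures the spread between these libraries only.

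In DMSO the family was dominated by HDAC5 and HDAC7. HDAC5 was at 145, 141, 129 and 129 TPM, in the order 0.1% replicates 1 and 2 and 0.2% replicates 1 and 2 that is kept below, and HDAC7 at 133, 129, 125 and 123 TPM. HDAC5 was above HDAC7 within each of the 4 libraries, but their ranges overlapped. MEF2C, the most abundant of the MEF2 genes examined, was at 53.2, 55.9, 49.0 and 50.6 TPM, and MEF2A at 25.3, 27.2, 25.3 and 27.7 TPM. MEF2D followed at 23.2, 20.7, 21.2 and 19.5 TPM and HDAC4 at 9.31, 9.18, 9.19 and 9.29 TPM. HDAC9 stood far below them at 0.398, 0.462, 0.525 and 0.384 TPM, which rest on 24 to 37 reads a library. Apart from HDAC5 and HDAC7, no neighbouring pair in this order overlapped across the 4 libraries.

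HDAC5, HDAC7 and MEF2C were lower in both 0.2% DMSO libraries than in both 0.1% libraries, and MEF2D was lower at 0.2% within each flow cell, but none of the 7 genes passed the test of 0.2% against 0.1% (limma on log2(TPM + 1), called at a Benjamini-Hochberg adjusted p below 0.05 over 16359 genes, used throughout), where 0.0122% of all genes were called and 95 genes had an unadjusted p under 0.05. The largest difference was a fall of HDAC5 by 0.15 ± 0.20 (SE) on the log2 scale at 0.2%. The spread in that test came from all 44 screen libraries, mostly from the 2 doses of each compound. It therefore does not show that the DMSO concentration was without effect. Over 10376 genes, the variance between DMSO concentrations was 2.466 times that of read counting. It was 2.207 times between flow cells and 1.027 times for concentration by flow cell. Over the 40 treated screen libraries MEF2A was the steadiest gene, from 21.3 to 54.1 TPM with a median of 28.3. MEF2C ranged most widely, from 7.20 to 124 TPM with a median of 54.4, a 17.3-fold span, and HDAC7 spanned 15.3 to 136.5 TPM around a median of 111.

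Under MC1568, aimed at HDAC4 and HDAC5, neither target's mRNA passed the test, and HDAC9 was the family member furthest from DMSO. None of the 7 genes was called against DMSO, whereas 22.5% of all 16359 genes were, 3205 of them higher and 478 lower. The median over all genes tested lay at 0.26 on the log2 scale, or 0.25 after median-ratio scaling, so small rises are set against that. By the unadjusted p, HDAC9 alone of the 7 was under 0.05. Each gene is described in turn, MEF2 factors first.

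MEF2C was at 34.0 TPM at 10 µM and 39.8 TPM at 1 µM of MC1568, both below the 4 DMSO libraries. The difference in log2(TPM + 1) was -0.49 ± 0.37 (SE), with a 95% interval from -1.26 to 0.28 and an adjusted p of 0.37. It was called in 1 of 13 alternatives, the fit of MC1568 and DMSO libraries alone (adjusted p of 0.042, range over the alternatives 0.042 to 0.73). MEF2A was at 29.7 and 29.4 TPM, above all 4 DMSO libraries by a margin of 0.16 ± 0.22 on the log2 scale (adjusted p = 0.65). MEF2D, at 20.7 and 19.9 TPM, lay inside the DMSO range, with a difference of -0.06 ± 0.33 (adjusted p = 0.93).

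Among the deacetylases, the labelled targets were slightly above DMSO. HDAC4 was at 11.9 TPM at 10 µM and 10.3 TPM at 1 µM, above the 4 DMSO libraries, a difference of 0.23 ± 0.22 with a 95% interval from -0.21 to 0.68 (adjusted p = 0.47). HDAC5 was at 153 and 169 TPM, also above all 4, a difference of 0.24 ± 0.20 with an interval from -0.17 to 0.65 (adjusted p = 0.42). Both differences are close to the 0.26 of the median gene. HDAC7 was at 116 TPM, below the 4 DMSO libraries, at 10 µM and at 129 TPM, within their range, at 1 µM, with a difference of -0.06 ± 0.32 and an interval from -0.73 to 0.61 (adjusted p = 0.92).

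HDAC9, known as a MEF2 target, was at 1.74 TPM at 10 µM (127 reads) and 1.37 TPM at 1 µM (114 reads). Both were above all 4 DMSO libraries, and their mean was 3.52 times that of DMSO. A level above DMSO was not particular to MC1568. HDAC9 lay below DMSO under only 1 of 7 compounds that act on acetylation and 0 of 11 that act on methylation. Its mean was 3.37 times that of DMSO under UNC0638 and 3.16 times under Bromosporin, through their 10 µM libraries, and 2.635 times under LAQ824. The log2(TPM + 1) scale understates the change of so low a gene. On it the difference under MC1568 was 0.82 ± 0.31, with a 95% interval from 0.19 to 1.45. Its adjusted p of 0.054 missed the threshold. It was called in 4 of 12 alternatives: limma voom on whole reads (log2 1.70, adjusted p of 0.0063), 4 separate DMSO libraries (0.014), the fit of MC1568 and DMSO alone (0.028) and the DMSO libraries of the MC1568 flow cell (0.049). The range over all 12 was 0.0063 to 0.32.

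**Figure D1:**
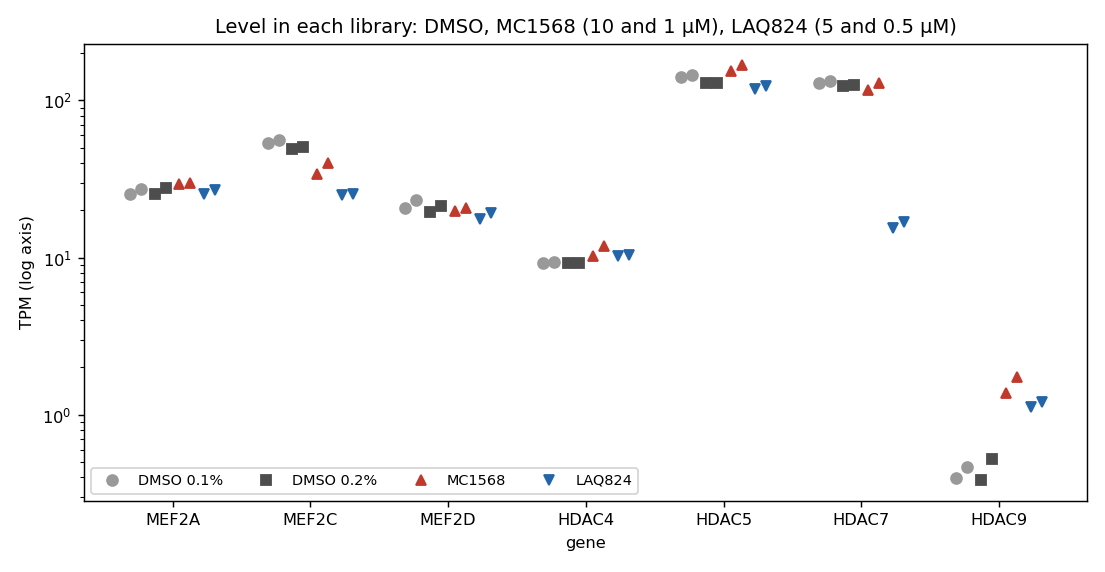
TPM (log axis) of the 7 genes in single libraries of DMSO 0.1% (circles), DMSO 0.2% (squares), MC1568 at 10 and 1 µM (upward triangles) and LAQ824 at 5 and 0.5 µM (downward triangles). HDAC7 sits at 15.3 and 16.9 TPM under LAQ824 but at 116 and 129 TPM under MC1568, and HDAC9 is above all DMSO libraries under both compounds.

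Among genes that act on the family, the kinases and 14-3-3 proteins were called higher at about the rate of all genes. Of 19 tested kinases and 14-3-3 proteins that control the location of class IIa HDACs, 4 rose and 3 fell, where 19.6% of all genes rose and 2.92% fell, and the list's median was 0.02 against 0.26 for all genes. The 4 that rose, grouped here after their values were seen, were the calcium/calmodulin-dependent kinases CAMK1, CAMK4, CAMK2B and CAMK2G, whereas CAMK2D of the same family was at 26.4 TPM in DMSO and 24.7 TPM at both doses (-0.09 ± 0.15, adjusted p = 0.69). CAMK2G went from 39.0 TPM in DMSO to 105 and 70.8 TPM (1.13 ± 0.15, adjusted p = 2.75e-05), CAMK4 from 4.68 to 11.5 and 9.32 TPM (1.00 ± 0.17, adjusted p = 0.000218) and CAMK1 from 12.6 to 30.5 and 26.5 TPM (1.11 ± 0.23, adjusted p = 0.00138). The 3 that fell, named here after their values were seen, were the 14-3-3 genes YWHAE, YWHAQ and YWHAZ, with log2 differences of -0.53, -0.29 and -0.42.

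Of 12 corepressor partners 1 rose and 0 fell under MC1568, where 19.6% of all genes rose and 2.92% fell. The list's median was 0.09 against 0.26 for all genes. The 1 that rose was ANKRA2, an ankyrin-repeat protein that binds class IIa HDACs, from 11.2 to 19.9 and 18.2 TPM (adjusted p = 0.026). CABIN1, a MEF2 corepressor (0.45 ± 0.20, adjusted p = 0.10), and HDAC3, their catalytic partner (0.24 ± 0.12, adjusted p = 0.15), did not pass. Of 13 MEF2 activators 2 rose and 0 fell, with a list median of 0.16 against 0.26 for all genes. Neither list was called higher more often than all genes. Both activators that rose were kinases of the p38 family. MAPK11 went from 3.49 to 13.96 and 8.46 TPM (adjusted p = 0.000715) and MAPK12 from 68.7 to 148 and 124 TPM (adjusted p = 0.00037), while MAPK14, the main p38 kinase, had a difference of 0.41 ± 0.20 (adjusted p = 0.14).

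MEF2 target genes were for the most part not called under MC1568. Of 18 tested, 1 rose and 0 fell, where 19.6% of all genes rose and 2.92% fell. The list's median was 0.21 against 0.26 for all genes. The 1 that rose was SLC2A4, the insulin-regulated glucose transporter, from 0.528 to 2.75 and 1.80 TPM (1.09 ± 0.25, adjusted p = 0.0033). DES, the muscle intermediate filament, was at -0.27 ± 0.10 (adjusted p = 0.053) and HRC, a calcium-binding protein of the sarcoplasmic reticulum, at 0.56 ± 0.26 (adjusted p = 0.12). The median of the 7 muscle tumour genes was -0.36 against 0.26 for all genes, and their summed level was 2903 and 3024 TPM at 10 and 1 µM against 3299 to 3438 TPM in DMSO. Of the 7, 6 lay below DMSO, among them MYOG (-0.77, adjusted p = 0.24) and MYOD1 (-0.62, adjusted p = 0.23), named after their values were seen. FGFR4 rose by 0.47 ± 0.14 (adjusted p = 0.020) and SOX8 fell by 0.54 ± 0.17 (adjusted p = 0.023). Of the 4 markers of other cell types, 1 was tested and rose: COL1A1 went from 96.4 TPM in DMSO to 436 and 366 TPM, and the summed level of the 4 markers went from 89.8 to 102 TPM in DMSO to 366.5 to 437 TPM. PTPRC stayed at 0 and the others at most 0.334 TPM. Whether any of this takes part in the HDAC9 value was not tested.

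LAQ824, sequenced on the same flow cell as MC1568 but at other doses, is given beside it without a contrast. It called 53.1% of all genes, 28.4% higher and 24.6% lower, and 2 of the 7 members, both lower. Of the same lists, 6 of 19 kinases and 14-3-3 genes rose and 8 fell, 5 of 12 corepressor partners rose and 5 fell, 3 of 13 activators rose and 5 fell, 5 of 18 MEF2 targets rose and 5 fell, and 7 of 7 muscle tumour genes fell, with COL1A1 higher. SLC2A4 reached 14.7 and 18.2 TPM (3.51 ± 0.25, adjusted p = 2.09e-09), and HDAC3, the partner of the class IIa enzymes, went from 87.6 to 136 and 155 TPM (0.73 ± 0.12, adjusted p = 1.98e-05). Beside the called MEF2C and HDAC7, HDAC4 was at 10.3 and 10.2 TPM, HDAC5 at 124 and 117 TPM, MEF2A at 25.4 and 26.9 TPM and MEF2D at 17.6 and 19.2 TPM, at 5 and 0.5 µM.

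At matched doses of 10 and 1 µM, MC1568 was set against the inhibitors labelled HDAC1/2, HDAC8 and HDAC6, which were sequenced on another flow cell, so that compound and flow cell cannot be told apart. Against WT161 (HDAC6), 1 of 7 members was higher under MC1568, where 41.3% of all genes were called and 29.3% were higher. That was HDAC7, at 19.8 and 64.8 TPM under WT161 and 116 and 129 TPM under MC1568, a difference of 1.73 ± 0.32 (adjusted p = 0.000165, and between 0.90 and 2.56 in all 10 alternatives, each of which called it). For the other 6 members the differences lay between -0.34 for MEF2D and 0.65 for HDAC9, whose interval ran from 0.02 to 1.28 (adjusted p = 0.092).

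Against OJI-1 (HDAC8), 2 of 7 members were higher under MC1568, where 36.8% of all genes were called and 31.9% were higher. HDAC4 differed by 0.78 ± 0.22 (adjusted p = 0.0065), but its levels under OJI-1 were 8.10 TPM at 10 µM and 4.37 TPM at 1 µM, and without the 1 µM OJI-1 library the difference was 0.40 and no longer passed (adjusted p = 0.24). It also ended without the 10 µM MC1568 library (0.69, adjusted p = 0.082). HDAC9, at 0.418 and 0.484 TPM under OJI-1, differed by 0.81 ± 0.31 (adjusted p = 0.040), a call that 8 of 9 alternatives ended (adjusted p up to 0.21), among them each of the 4 that left out a library.

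Against Merck60 (HDAC1/2), 0 of 7 members were called, where 18.6% of all genes were and 5306 genes had an unadjusted p under 0.05. No member was called without the 10 µM Merck60 library either. The widest difference was in MEF2C, 60.5 and 56.3 TPM under Merck60 against 34.0 and 39.8 TPM, at -0.65 with an interval from -1.42 to 0.12 (adjusted p = 0.24). HDAC9 followed, 0.909 and 0.423 TPM against 1.74 and 1.37 TPM, at 0.63 with an interval from -0.00171 to 1.26. The intervals leave room for differences of more than 2-fold in MEF2C and HDAC9, so that likeness of the compounds is not shown.

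Across the other 19 screen compounds, 11 of 133 gene and compound pairs were called, all 11 of them lower than DMSO, and they fell on 6 compounds. Of the 7 members, LAQ824 called 2 (53.1% of all genes), Bromosporin 4 (35.8%) and WT161 1 (32%). UNC0638 called 1 (12.1%), SGC-CBP30 2 (3.41%) and Trametinib 1 (2.7%). No pooled share over all gene and compound pairs was computed, so the count is not read as particular to the family. The other compounds called 0 of 7 members. Their background over all genes was 5.7% for Cpd50, 3.51% for GSKLSD1, 1.41% for LSD690, 0.587% for LSD519, 0.465% for PFI-2, 0.183% for SGC0946, 0.171% for OJI-1 and 0.116% for Merck60. It was 0.0734% for EZ-005, 0.0672% for UNC1999, 0.0489% for UNC1215, 0.0428% for PFI-3 and 0.0122% for GSKJ4. The count rested on single libraries. It was 5 when the high dose of each compound was left out, 16 when the low dose was, and 5 and 6 without DMSO 0.1% and 0.2%. With voom on whole reads it was 15, and the 4 pairs that voom added (HDAC9 under Bromosporin and LAQ824, MEF2C under Cpd50 and Trametinib) were all higher than DMSO. In the fit of each compound and DMSO alone it was 12, of which 3 were among the 11 (MEF2C and HDAC7 under LAQ824 and HDAC5 under Trametinib). Of the other 9, 7 were higher than DMSO, so that the single direction of the 11 is not kept under these alternatives.

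**Figure D2:**
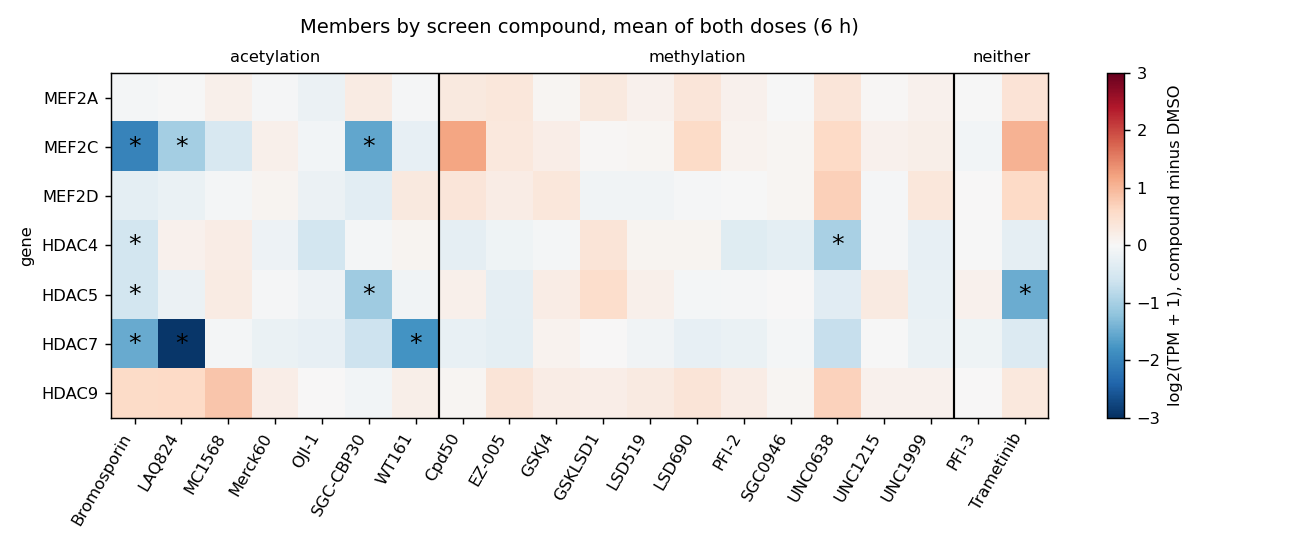
Difference from DMSO in log2(TPM + 1), mean of both doses, for the 7 genes (rows) and 20 screen compounds (columns), with an asterisk on the 11 pairs called at an adjusted p below 0.05. The asterisks lie on Bromosporin, LAQ824, SGC-CBP30, WT161, UNC0638 and Trametinib, all on lower values, and none lies on MC1568.

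Of the MEF2 genes examined, MEF2C alone was called in the reported fit, lower under Bromosporin, SGC-CBP30 and LAQ824. Under Bromosporin, which called 35.8% of all genes, 23.4% lower, and 4 of the 7 members, all lower, it was at 7.20 TPM at 10 µM and 20.2 TPM at 1 µM, far below the DMSO range, a difference of -2.01 ± 0.37 (adjusted p = 0.000351). Under SGC-CBP30, which called 3.41% of all genes, 2.68% lower, and 2 of the 7 members, both lower, it was at 9.68 and 29.9 TPM, a difference of -1.55 ± 0.37 (adjusted p = 0.021). Under LAQ824 it was at 24.9 and 25.3 TPM, a difference of -1.03 ± 0.37 (adjusted p = 0.024).

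These 3 MEF2C falls did not rest equally on the libraries. For Bromosporin the call held in 12 of 13 alternatives, also without the 10 µM library (-1.32, adjusted p = 0.047), and ended in the fit of Bromosporin and DMSO alone (adjusted p = 0.19). For SGC-CBP30 it ended without the 10 µM library, where the difference was -0.78 (adjusted p = 0.95), without either DMSO concentration (0.22 and 0.12) and in the fit of SGC-CBP30 and DMSO alone (0.26). For LAQ824 the difference stayed between -1.09 and -0.95 in 12 alternatives, but the call ended without any 1 of its 2 doses or of the 2 DMSO concentrations (adjusted p from 0.063 to 0.10). The summed level of the 7 muscle tumour genes was also below its DMSO range of 3299 to 3438 TPM in these libraries, at 1694 and 2363 TPM under Bromosporin, 1540 and 2527 TPM under SGC-CBP30 and 1263 and 1356 TPM under LAQ824, and COL1A1 was at 191 to 218, 155 to 161 and 248 to 249 TPM. Their part in the MEF2C, HDAC5 and HDAC7 values was not tested. For SGC-CBP30, 119 genes were called higher and 439 lower over all genes, and 74 and 625 with median-ratio scaling.

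MEF2C was above DMSO in other settings, without passing the test. Under Cpd50 it was at 124 and 114 TPM at 5 and 0.5 µM, 2.29 times the DMSO mean, a difference of 1.18 ± 0.37 with an adjusted p of 0.064. Cpd50 called 0 of 7 members, where 5.7% of all genes were called, and 5 of its alternatives called MEF2C higher (mean TPM of at least 5, median-ratio scaling, voom, separate DMSO libraries, and Cpd50 and DMSO alone, adjusted p from 0.0026 to 0.049). Over all genes Cpd50 called 561 higher and 371 lower, and 753 and 154 with median-ratio scaling. Under Trametinib MEF2C was at 99.9 and 117 TPM (1.04 ± 0.37, adjusted p = 0.18), with both libraries above every DMSO library, and 3 alternatives called it (voom, separate DMSO libraries, and Trametinib and DMSO alone). Under the 10 µM doses of UNC0638 and LSD690 it was at 123 and 101 TPM, while their 1 µM libraries were at 51.6 and 60.3 TPM.

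MEF2A and MEF2D were called under none of the 20 compounds, though the fits of Cpd50 and of Trametinib with DMSO alone called both higher. For MEF2A the largest difference was 0.42 ± 0.22 under Trametinib (35.5 and 35.4 TPM, adjusted p = 0.49). MEF2D was farthest from DMSO under UNC0638 (0.73 ± 0.33, adjusted p = 0.14), with 70.0 TPM at 10 µM and 17.8 TPM at 1 µM. The same 10 µM library held the highest MEF2A level of the screen, 54.1 TPM against 21.3 TPM at 1 µM. Without the 1 µM library, UNC0638 rested on 1 library. The log2 differences were then 1.01 for MEF2A, 1.22 for MEF2C, 1.68 for MEF2D, 1.23 for HDAC9, -1.01 for HDAC7 and -1.45 for HDAC4. How far all genes moved in that library alone was not computed.

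HDAC7 showed the deepest fall in the family. Under LAQ824 it was at 15.3 and 16.9 TPM at 5 and 0.5 µM, against 123 to 133 TPM in DMSO, which is 7.92 times lower by the means (-2.91 ± 0.32, adjusted p = 1.41e-07). All 12 alternatives called it, with values from -2.98 to -2.84. Under WT161, which called 32% of all genes, 14.3% lower, and 1 of the 7 members, HDAC7 was at 19.8 TPM at 10 µM and 64.8 TPM at 1 µM (-1.79 ± 0.32, adjusted p = 0.000208). Under Bromosporin it was at 29.8 and 65.7 TPM (-1.503 ± 0.32, adjusted p = 0.0011). Both compounds lowered it at each dose, and neither dose overlapped DMSO. Without the 10 µM library Bromosporin no longer passed (-0.95, adjusted p = 0.11), and neither compound passed when fitted with DMSO alone (adjusted p of 0.17 for WT161 and 0.20 for Bromosporin).

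HDAC7 did not pass under the other deacetylase inhibitors of the screen. Merck60 was at 104 and 118 TPM (-0.20 ± 0.32, adjusted p = 0.998) and OJI-1 at 121 and 95.3 TPM (-0.24 ± 0.32, adjusted p = 1). SGC-CBP30, at 67.3 and 100 TPM, was lower by 0.63 ± 0.32 without passing (adjusted p = 0.33). The overlapping gene SLC48A1 was at 4.42 to 6.03 TPM in DMSO, 14.95 and 13.0 TPM under LAQ824, 18.3 and 8.60 TPM under WT161 and 23.9 TPM at 10 µM of MC1568. The summed muscle tumour genes were at 1464 and 2342 TPM under WT161, with COL1A1 at 100.5 to 125 TPM. The part of either in the HDAC7 values was not tested. In these bulk libraries fewer cells of a kind and less RNA per cell cannot be told apart.

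HDAC5 fell under 3 compounds, most under the MEK inhibitor. Trametinib called 2.7% of all genes, 1.37% lower, and 1 of the 7 members, and held HDAC5 at 53.0 TPM at 10 µM and 43.6 TPM at 1 µM (-1.48 ± 0.20, adjusted p = 6.71e-05). Both libraries were far below the 129 to 145 TPM of DMSO, and all 13 alternatives called it, from -1.62 to -1.29. SGC-CBP30 held HDAC5 at 44.8 TPM at 10 µM and 93.0 TPM at 1 µM (-1.06 ± 0.20, adjusted p = 0.0039), a call that ended without the 10 µM library (-0.54, adjusted p = 0.45) without DMSO 0.1% (adjusted p = 0.10) or with DMSO alone in the fit (0.26). Bromosporin held it at 85.6 and 101 TPM (-0.54 ± 0.20, adjusted p = 0.037), which 8 of 13 alternatives ended, among them median-ratio scaling (adjusted p = 0.098) and leaving out the 10 µM library (-0.43, adjusted p = 0.33). The highest levels, 189 and 205 TPM under GSKLSD1, did not pass (0.53 ± 0.20, adjusted p = 0.18), where 3.51% of all genes were called, 460 higher and 115 lower, or 267 and 151 with median-ratio scaling. The 4 separate DMSO libraries called it (adjusted p = 0.049). GSKLSD1 shared a flow cell without DMSO with UNC1215 alone, under which HDAC5 was at 163 and 166 TPM. Compound and flow cell cannot be told apart there.

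HDAC4 fell under UNC0638, which called 12.1% of all genes, 9.76% lower, and 1 of the 7 members. It was at 2.74 TPM at 10 µM (60 reads) and 6.18 TPM at 1 µM (-0.98 ± 0.22, adjusted p = 0.0088). The call ended without the 10 µM library (-0.51, adjusted p = 0.30) and without either DMSO concentration (adjusted p of 0.096 and 0.086), and with DMSO alone in the fit (0.61). Over all genes UNC0638 called 388 higher and 1596 lower, and 601 and 1008 with median-ratio scaling. Under Bromosporin HDAC4 was at 5.25 and 6.83 TPM (-0.55 ± 0.22, adjusted p = 0.048). That call was ended by 9 of 13 alternatives, leaving out the 10 µM library among them (-0.39). OJI-1 gave HDAC4 the same difference, at 8.10 and 4.37 TPM (-0.55 ± 0.22), without passing (adjusted p = 0.44). It called 0.171% of all genes, against 35.8% for Bromosporin, so the call does not set the 2 compounds apart in HDAC4.

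HDAC9 was not called under any screen compound. Beside MC1568 its highest levels were 2.44 TPM under 10 µM Bromosporin (190 reads) and 2.37 TPM under 10 µM UNC0638 (57 reads), while their 1 µM libraries were at 0.354 and 0.608 TPM. Without those 1 µM libraries the differences were 1.26 and 1.23 on the log2 scale, each resting on 1 library. The 10 µM Bromosporin library is among those with few odd read numbers. At 1 µM of Bromosporin HDAC9 was -0.08 from the 0.1% DMSO libraries on that scale. LAQ824 held it at 1.21 and 1.12 TPM (125 and 136 reads), above all DMSO libraries at both doses (0.59 ± 0.31, adjusted p = 0.11), and 3 alternatives called it (voom, separate DMSO libraries, and LAQ824 and DMSO alone, adjusted p from 0.0023 to 0.049). Over the 40 treated libraries HDAC9 rested on 11 to 190 reads.

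**Figure D3:**
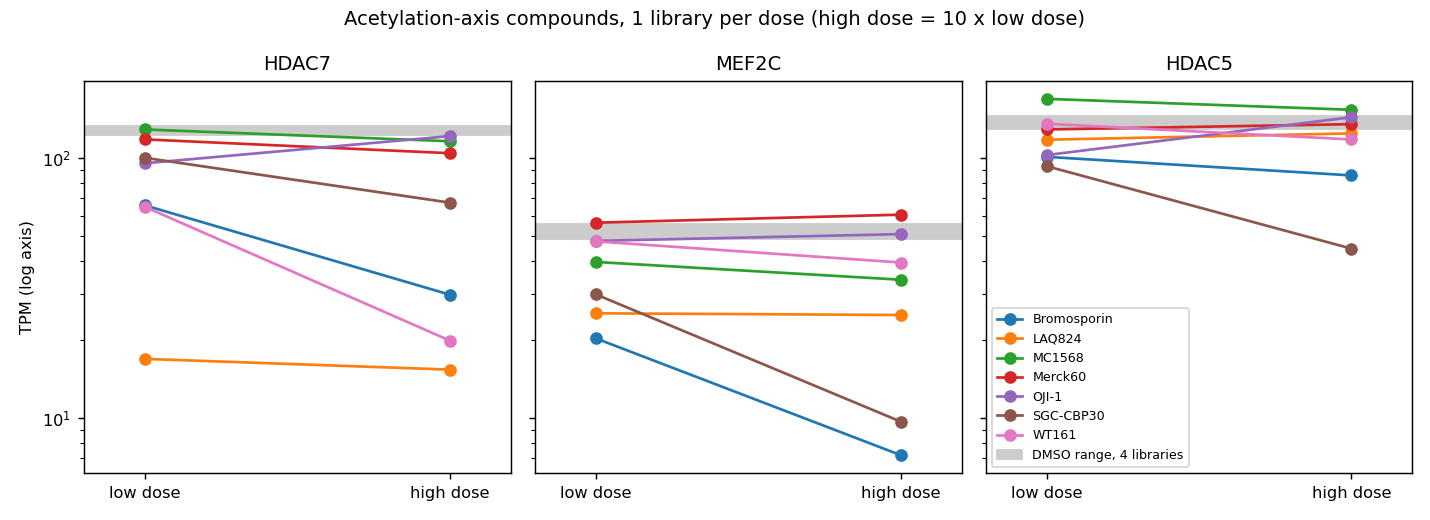
TPM (log axis) of HDAC7, MEF2C and HDAC5 at the low and the high dose of the 7 acetylation-axis compounds, 1 library per point, with the range of the 4 DMSO libraries in grey. WT161 and Bromosporin lower HDAC7 further at the high dose (19.8 and 29.8 TPM), LAQ824 is at 15.3 and 16.9 TPM at both, and MC1568 lies at 116 to 129 TPM.

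Across compounds as units, the acetylation axis (7) was compared with the methylation axis (11). None of the 7 members was called, 0% of all genes were, and 5018 genes had an unadjusted p under 0.05. MEF2C came nearest: its mean difference from DMSO was -0.75 ± 0.81 (SD, n = 7) on the acetylation axis, 6 compounds being below DMSO, and 0.31 ± 0.35 (SD, n = 11) on the methylation axis, 0 being below. The difference was -1.06 ± 0.25 (SE) with an adjusted p of 0.057, and it passed in 3 of 10 alternatives: mean TPM of at least 5 (0.045), voom (0.032) and high doses alone (0.037). HDAC7 was at -1.05 ± 1.06 on the acetylation axis, below DMSO in 7 of 7 compounds, and at -0.17 ± 0.21 on the methylation axis, below in 9 of 11 (-0.88 ± 0.29, adjusted p = 0.073), and passed with voom (0.048).

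The 10-fold dose step within the 20 compounds called 0 of 7 members, where 0% of all genes were called and 2874 had an unadjusted p under 0.05. HDAC7 was lower by 0.24 ± 0.09 at the high dose (adjusted p = 0.21) and HDAC9 higher by 0.24 ± 0.09 (adjusted p = 0.18). The step differed most between the axes for MEF2C, by -0.66 ± 0.24 with an adjusted p of 0.24, a test added after the data were seen that called 0 of 7 members, 0% of all genes, with 2553 at an unadjusted p under 0.05.

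Under entinostat HDAC9 was higher and HDAC5 and HDAC7 lower at 24 h. With 1 library per condition there is no test, and a gene was marked past a 2-fold difference in log2(TPM + 1). After 1 h 0 of 7 members were past it, where 1.24% of all genes were, and after 6 h 0 of 7, where 6.08% were. At 6 h HDAC9 was 0.92 higher, on a scale that understates the change of so low a gene. Against the mean of both 6 h DMSO libraries it was 0.41 higher, the DMSO library of N1302 being at 1.89 TPM. With a pseudocount of 0.1, 7 instead of 5 of the values under entinostat and N1302 were past the mark. After 24 h 3 of 7 were, where 22.4% of all genes were, 16.4% higher and 6.06% lower. HDAC9 was at 0.482, 1.70 and 7.21 TPM after 1, 6 and 24 h (44, 230 and 846 reads) against 0.473, 0.425 and 0.5255 TPM in DMSO of the same times, a difference of 2.43 at 24 h.

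For HDAC5 and HDAC7 the lowest level was that of 24 h. HDAC5 was at 101, 121 and 37.8 TPM against 94.4, 104 and 118 TPM in DMSO (-1.61 at 24 h), and HDAC7 at 78.4, 57.4 and 31.4 TPM against 76.9, 80.5 and 74.2 TPM (-1.21 at 24 h). MEF2A, at 37.8 TPM after 24 h against 20.8 TPM, stayed under the 2-fold mark (0.83). MEF2C, MEF2D and HDAC4 differed by at most 0.47 at any of the 3 times. SLC48A1, which overlaps HDAC7, was at 1.82, 8.98 and 24.8 TPM under entinostat at these times.

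N1302 at 6 h was past the 2-fold mark in 2 of 7 members, both lower, where 30.9% of all genes were and 19.3% were lower. HDAC7 was at 7.37 TPM (223 reads) against 62.2 TPM (2689 reads) in its own DMSO library, a difference of -2.92, and MEF2C at 17.7 against 40.5 TPM, a difference of -1.15 that was -0.84 with median-ratio scaling. The DMSO library of N1302 stood apart from the 6 h DMSO library of the time course: 14.1% of 16359 genes differed by 2-fold or more, against 1.41% between the 1 h and 6 h time-course DMSO libraries. HDAC5 was at 18.5 TPM in it and 104 TPM in the other. HDAC5 under N1302, 30.5 TPM, was therefore 0.70 above its own DMSO but -0.52 from the mean of both 6 h DMSO libraries, while HDAC7 was at -2.92 and -3.10.

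**Figure D4:**
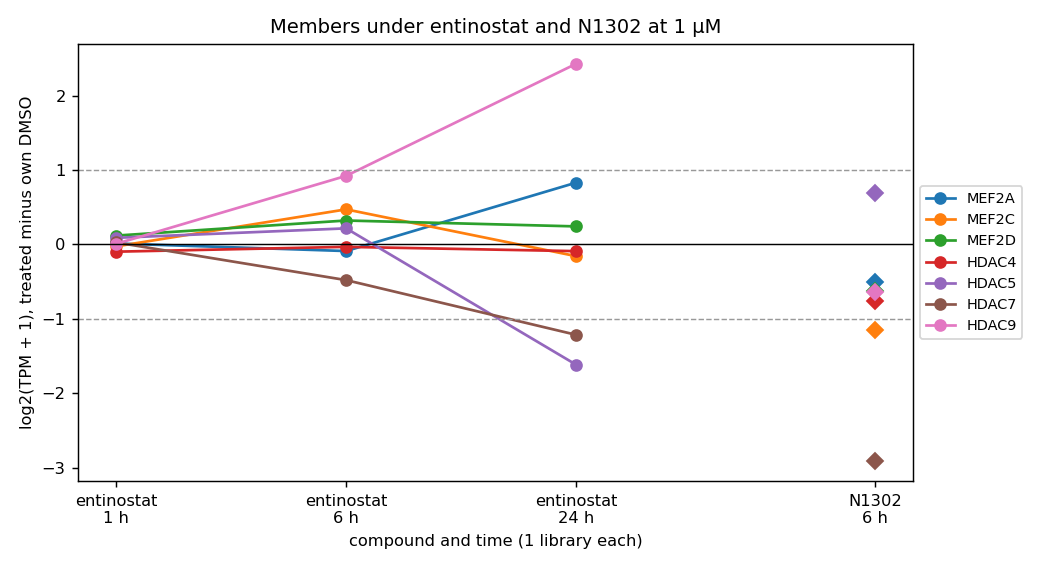
Difference in log2(TPM + 1) of each gene from its own DMSO library under entinostat at 1, 6 and 24 h and N1302 at 6 h, both at 1 µM and with 1 library per point; dashed lines mark 2-fold. HDAC9 reaches 2.43 and HDAC5 -1.61 at 24 h of entinostat, and HDAC7 is at -2.92 under N1302.

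Over the 40 treated screen libraries, which share flow cells and come as 2 doses of each compound, the genes most like each member were listed among 11141 genes with a mean of at least 5 TPM, as a description. HDAC7 was followed most closely, by ZC3H4, NSMAF and H2AFY2 (Pearson r of 0.97 each). MEF2C was nearest to FOXP1, TRIM55 and ABLIM1 (0.93, 0.93 and 0.90), HDAC4 to AP3D1, VAC14 and MOCS1 (0.90, 0.89 and 0.86) and HDAC5 to TTYH2, ALDH1A3 and ETV4 (0.89, 0.87 and 0.87). MEF2D was nearest to PPP1R15A, BACH2 and FOXN3 (0.84, 0.83 and 0.83), MEF2A to ANKRD12, MAP3K2 and ZNF264 (0.81, 0.78 and 0.77) and HDAC9 to ZNF529, PCMTD1 and LSMEM1 (0.77, 0.73 and 0.73). Among themselves the members were less alike: the highest r was 0.65, between MEF2A and MEF2D, then 0.63 between MEF2C and MEF2D and 0.50 between MEF2C and HDAC7, and the lowest was -0.41 between MEF2D and HDAC4.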

How the data were processed

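RNA-seq gene expression was taken from 52 tables, 1 a library. The authors selected poly-A RNA, aligned reads with STAR to hg19 and deposited gene TPM values. Their methods name RSEM on a UCSC reference for TPM, while the submitters' processing notes name STAR and edgeR. Which of these made the deposited values was not settled, and edgeR was not run here. Reads were recovered from the steps of the TPM values (99.99% of 23645 genes within 0.02 of whole numbers) and used for depth and for limma voom.

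From the TPM, log2(TPM + 1) was fitted with limma 3.58.1 (R 4.3.3, lmFit, eBayes with trend) over genes at 1 TPM or more in at least 2 of the 52 libraries, 16359 in all. P-values were Benjamini-Hochberg adjusted over all of them. Both doses of a compound stood as its 2 samples, and the DMSO pair of each concentration was averaged, giving 2 controls. All 20 compounds shared 1 spread estimate. Axis and dose tests used compounds as units. The scripts were tested on simulated data. N1302 and entinostat have 1 library a condition and no test. Sequences came from RefSeq start regions (GRCh38.p14), which matched 6 of the 7 genes.

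The 7 genes were named in every comparison. From each list the 3 genes with the smallest adjusted p under MC1568 were named, with up to 4 that passed with a log2 difference of at least 1. For each member the 3 genes of highest correlation were named. The members and lists were chosen with earlier results of these data known. Alternatives were another pseudocount (0.1), filter, scaling, voom, other uses of the DMSO libraries, single flow cells and leaving out libraries. The replicate numbers of the DMSO libraries coincide with 2 flow cells.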

Additional observations from a re-analysis of the deposited data

Results flagged for a closer look

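HDAC9 was at 1.89 TPM in the DMSO library of the N1302 experiment, far from the other 3 DMSO libraries of RH4 (0.425 to 0.5255 TPM). Of 21 groups examined for such a gap, 1 had one, and chance gives about 1 in 20. The same library held HDAC5 at 18.5 TPM, against 94.4 to 118 TPM in the others.

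Under entinostat, HDAC5 was 0.0895 above its own DMSO at 1 h and 0.22 above at 6 h, and -1.61 from it at 24 h. HDAC7 was 0.0271 above at 1 h and -1.21 from DMSO at 24 h. These directions differ between time points of 1 library each, and the difference was not tested.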

How the results depend on the processing

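Under MC1568 the number of members called, 0 as reported, was 1 with voom, 1 with 4 separate DMSO libraries, 2 with only MC1568 and DMSO in the fit and 1 with the DMSO libraries of its flow cell. Leaving out either MC1568 library or either DMSO concentration left 1 sample in a group, so no count is given for it. No single DMSO library was left out for this contrast. MEF2D turned from -0.06 to 0.0117 with the DMSO libraries of that flow cell, and HDAC7 from -0.06 to 0.014 without the 10 µM library (-0.136 without the 1 µM library), neither being called. For the other compounds, 11 calls became 5 to 16 when a dose was left out and 5 and 6 without DMSO 0.1% and 0.2%. The 3 calls between MC1568 and the matched inhibitors became 1 when a log2 difference of 1 was also required, and 1 to 3 when a library was left out. Between the axes, 0 calls became 1 with a mean TPM of at least 5, 2 with voom and 1 with high doses alone. For DMSO 0.2% against 0.1%, leaving out libraries gave 0 to 0, and the replicate block also gave 0 calls, so the pairing by flow cell changed no call. The causes were not tested. Precision is limited by 2 controls and 2 doses as samples and, for HDAC9, by 11 to 190 reads in treated libraries; no detection limit was computed. The 14 compounds on the flow cell with 28 libraries, which held no DMSO, cannot be told apart from that flow cell in comparisons with DMSO. Against the other compounds of that flow cell 7 of the 9 calls on them were retained. GSKLSD1 and UNC1215 shared another flow cell without DMSO, so the same limit holds for them.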
